A study of Mus musculus with 60 samples.

Results

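Hindquarters of wild-type and MSTN-null fetuses were compared at 17.5 days post coitus (d.p.c.) to ask how the absence of myostatin changes transcript levels while secondary muscle fibres are forming. The samples were the 10 pools titled 17.5 d.p.c., 5 wild-type and 5 MSTN-null, out of 30 pools in the series, and they accounted for 20 of its 60 arrays. Each pool combined RNA from 3 animals of 1 genotype, so 15 fetuses stood behind each genotype, and each pool was hybridised to 2 Affymetrix chips, MOE430A (chip A) and MOE430B (chip B). Both genotypes were C57BL/6J mice, the null animals carried no functional Mstn, and the labels name no treatment of either. The other pools of the series came from entire embryos of 13.5 d.p.c. and from pectoralis muscle at 35 days of age (d35), again with 5 pools of each genotype at each age. All 45037 probe sets that were not controls were analysed, of which 34945 had 1 gene symbol, 932 had several and 9160 had none, and 18193 genes were represented. No probe set was named Mstn, so the level of the deleted gene could not be used to check the genotype labels.

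Myostatin is a secreted member of the transforming growth factor beta superfamily that restrains skeletal muscle growth. It binds the activin type II receptors ACVR2A and ACVR2B, recruits the type I receptors ACVR1B and TGFBR1, and signals through SMAD2 and SMAD3, while follistatin holds it away from its receptors. In the mouse, secondary fibres form alongside primary fibres late in gestation, embryonic and perinatal myosin heavy chains dominate at that stage, and most fibres that will become fast or slow have begun to express part of the adult programme. A hindquarter holds much more than muscle: skin, bone and cartilage, nerve, fat and blood belong to it. The fetal liver makes both plasma proteins and blood cells.

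The deposited values were log2 intensities, and a difference is given throughout as wild-type minus MSTN-null on the log2 scale. Array medians lay between 7.78 and 7.86 on chip A and between 6.89 and 6.91 on chip B, and no arrays held identical values. The chip B array of wild-type pool 1 stood apart: its correlation with the mean of the other chip B arrays was 0.9536, where each of the other 9 reached at least 0.9945. On chip A the lowest values were 0.9872 in MSTN-null pool 4 and 0.9863 in MSTN-null pool 5. The Gapdh control probe sets, whose signal at the 3′ end minus that at the 5′ end reflects RNA integrity, gave differences from -0.0011 to 0.0353 in the wild-type and from -0.0795 to -0.005 in the MSTN-null arrays of chip B (two-sided exact permutation test over all splits of the pools, p = 0.0079). The same exact permutation test gave p = 0.8889 for Gapdh on chip A, and 0.4365 and 0.3333 for actin on the chips. The part of these array differences in the genotype differences was not tested, and values without wild-type pool 1 or its chip B array are given beside the results that depend on them.

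The tissue label was checked against its defining genes. Skeletal alpha-actin (Acta1) lay between 14.14 and 14.47 in the 10 pools, muscle creatine kinase (Ckm) between 13.20 and 13.74, and embryonic myosin heavy chain (Myh3) between 12.72 and 13.27. All were far above the array medians in every pool. Pitx1, the factor that gives the hindlimb its identity, ranged from 8.0 to 8.27 and differed by -0.05 between genotypes. The genes of hindlimb and tail position (10 measured) had a median level percentile of only 44.8 among all genes. For a list of genes of the front of the body (7 measured) it was 30.1. Sftpc of lung, a member of that second list, was nevertheless high in wild-type pools 2 and 4, as given under other observations. The labels name whole hindquarters, and the dissection is not described further, so a change within muscle fibres and a change in the share of muscle in the tissue could give the same values. In such bulk RNA, fewer cells of a type and less RNA per cell cannot be told apart.

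With limma and Storey q-values, 0% of the 45037 probe sets were called at q below 0.05, and the smallest q was 1. At an unadjusted p below 0.05, 675 probe sets (1.5%) were higher in wild-type and 418 (0.928%) were lower. The sum of 1093 is below the 2252 that make up 5% of the probe sets. Which direction held more depended on the setting: after further quantile normalization 597 were higher and 686 lower, and on chip B alone 173 and 248. All 5 pools of 1 genotype lay above all 5 of the other for 149 probe sets (0.331%) higher in wild-type and 92 (0.204%) lower. With each gene taken at its brightest probe set, 367 of the 18193 genes (2.02%) were higher and 195 (1.07%) lower at p below 0.05, and 68 (0.374%) and 34 (0.187%) did not overlap between genotypes. The median difference over all genes was 0.0028, and 9361 of 18193 genes were higher in wild-type. These shares are the background for the counts that follow. No gene named for this genotype comparison passed the adjusted test, so its differences are given as values.

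Genes of the contractile apparatus varied more between pools of 1 genotype than between the genotypes. The list of sarcomere genes shared by all fibre types had 24 measured members, including the giant proteins titin and nebulin and the Z-disc proteins. Their median difference was -0.12, 3 were higher and 21 lower in wild-type, none reached an unadjusted p below 0.05, and the range was -0.31 to 0.07. A level of a list in a pool was taken as the mean over its genes of the value minus the mean of the 10 pools. For the shared sarcomere genes this level was -0.52, -0.12, 0.38, -0.16 and 0.14 in wild-type pools 1 to 5 and -0.11, -0.17, 0.33, 0.03 and 0.20 in MSTN-null pools 1 to 5. The genotypes overlapped over most of their range, pool 3 was the highest of each genotype, and wild-type pool 1 was the lowest of all. Of the 24 genes 8 were measured on chip B, where wild-type pool 1 had nebulin (Neb) at 9.52 and the other pools lay between 10.57 and 11.42. Without that chip B array the median was -0.06, without wild-type pool 1 altogether it was 0.01, and with wild-type pool 1 and MSTN-null pool 5 both left out it was 0.03.

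Fast-fibre genes stood lower in wild-type at most members. The list holds the fast myosin heavy and light chains, fast troponins and proteins of fast Z-discs and calcium handling. Of 15 measured genes 14 were below 0, the median was -0.20 and the range -0.74 to 0.23, and 3 had an unadjusted p below 0.05 (Mybpc2, Myoz1 and Pvalb). Leaving out single pools moved the median between -0.29 and -0.13, the latter without wild-type pool 1. Mybpc2, fast myosin-binding protein C, stood at 7.42, 7.92, 8.86, 7.73 and 7.86 in wild-type pools 1 to 5 and at 7.93, 8.32, 9.45, 8.60 and 9.22 in MSTN-null pools 1 to 5. Pool 3 was the highest of both genotypes, and the genotypes overlapped. The difference was -0.74 (95% confidence interval -1.45 to -0.04, q = 1), and it was -0.61 without the chip B array of wild-type pool 1. Myoz1, a Z-disc protein of fast fibres that binds calcineurin, stood at 11.34, 11.28, 11.71, 11.08 and 11.45 in wild-type and at 11.65, 11.50, 11.93, 11.72 and 11.86 in MSTN-null pools. All 5 MSTN-null pools were above the wild-type mean, but wild-type pool 3 was above MSTN-null pools 1 and 2. Its difference was -0.36 with a 95% interval from -0.62 to -0.10, and another probe set of the gene gave -0.08. Actn3, the actinin of fast fibres, differed by -0.37 (95% interval -0.96 to 0.22). The adult fast myosin heavy chains, which are expressed mainly after birth, did not share a direction: Myh1 differed by -0.23, Myh4 by -0.17 and Myh2 by 0.23, with intervals that included 0. A second, dimmer probe set of Myh4 gave -0.38, with an unadjusted limma p of 0.0164.

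**Figure D1:**
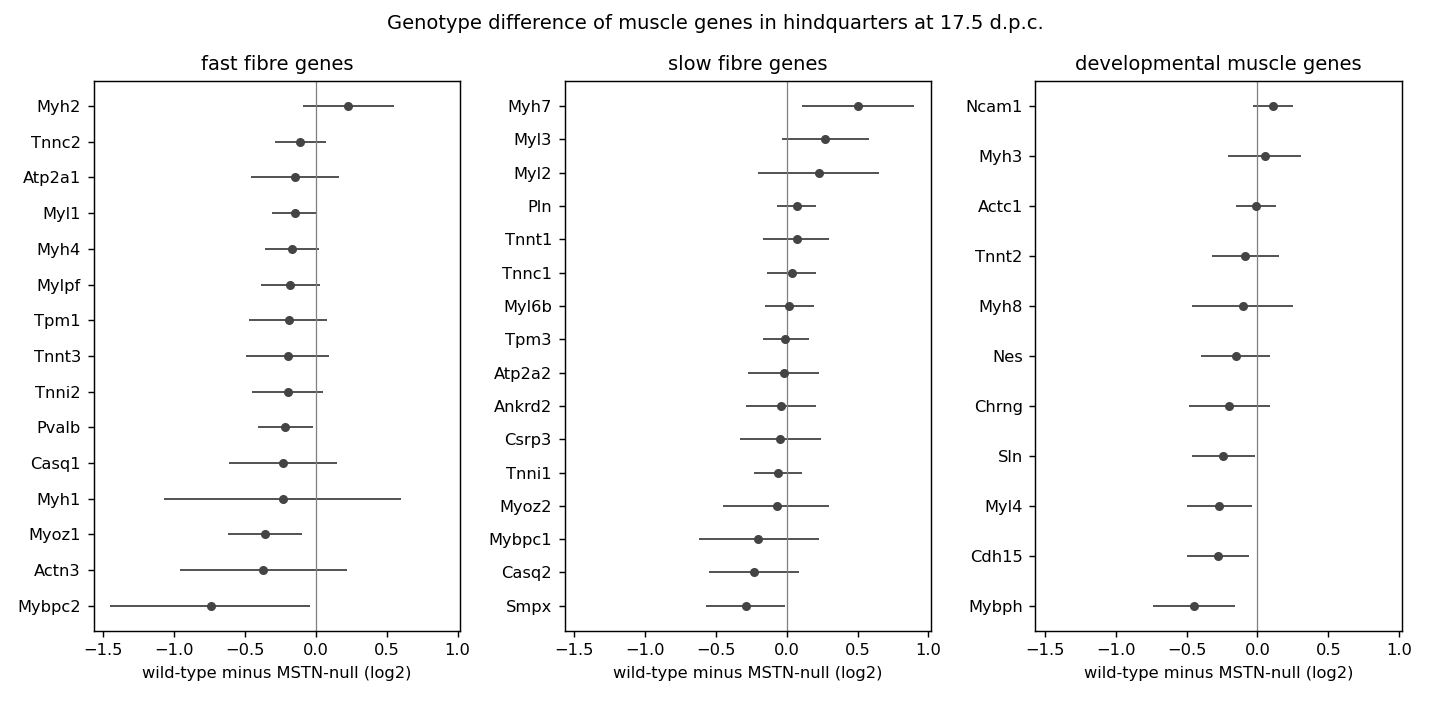
Difference between genotypes (wild-type minus MSTN-null, log2 scale, horizontal axis) for the measured genes of the fast, slow and developmental muscle lists (1 panel each), 1 point per gene at its brightest probe set with its 95% confidence interval from limma. Fast-fibre and developmental genes lie mostly left of 0 (Mybpc2 at -0.74 and Mybph at -0.45), and Myh7 at 0.50 is farthest to the right.

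Genes typical of developing muscle gave a similar picture. Of 11 measured, 9 were lower in wild-type, the median was -0.15, and 4 had an unadjusted p below 0.05, all lower in wild-type (Mybph, Cdh15, Myl4 and Sln). Mybph, myosin-binding protein H, stood at 9.53, 9.69, 10.10, 9.76 and 10.09 in wild-type and at 10.28, 10.04, 10.59, 10.14 and 10.38 in MSTN-null pools. Only wild-type pools 3 and 5 reached into the MSTN-null range, and the difference was -0.45 (95% interval -0.74 to -0.16). Cdh15, the cadherin of myoblasts and satellite cells, differed by -0.28, the atrial and embryonic light chain Myl4 by -0.27, and sarcolipin (Sln), which regulates the calcium pump, by -0.24. The probe sets of Myl4 ranged from -0.27 to -0.12 and those of Sln from -0.24 to 0.03. The defining myosin heavy chains of this stage were close to 0: embryonic Myh3 differed by 0.05 (SE 0.117) and perinatal Myh8 by -0.10 (SE 0.162).

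The transcription factors that drive the muscle lineage had a median of -0.14, with 10 of 13 lower in wild-type. Myogenin (Myog), needed for myoblasts to differentiate, stood at 9.79, 10.33, 10.49, 10.25 and 10.26 in wild-type and at 10.38, 10.50, 10.66, 10.43 and 10.60 in MSTN-null pools. Wild-type pool 1 was well below the others, all 5 MSTN-null pools were above the wild-type mean, and the difference was -0.29 (95% interval -0.55 to -0.04). The value lay between -0.36 and -0.18 when single pools were left out. Myf6, which acts late in differentiation, differed by -0.37 (95% interval -0.72 to -0.02). Myod1 differed by -0.20, Myf5 by -0.14 and Pax7, the marker of muscle progenitors, by -0.09, none with an unadjusted p below 0.05. For the whole list the median was 0.00 without wild-type pool 1. Among 15 genes of myoblast adhesion and fusion the median was -0.06, with Cdh15 and the laminin receptor subunit Itga7 (-0.27) at p below 0.05. All 14 genes of excitation-contraction coupling were at or below 0 (median -0.14), none with an unadjusted p below 0.05. That median lay between -0.24 without wild-type pool 3 and -0.07 without wild-type pool 1 or MSTN-null pool 3, and with wild-type pool 1 and MSTN-null pool 5 both left out it was -0.02 with 3 of 14 above 0. With the liver level as a covariate it was -0.05. The 12 genes of the motor endplate had a median of -0.04.

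Slow-fibre genes did not share the direction of the fast list. Of 16 measured, 7 were above 0 and 9 below, and around the median of -0.01 they ranged from -0.29 (Smpx) to 0.50 (Myh7). This split rests on the brightest probe set of each gene. Over all their probe sets Tpm3 ranged from -0.01 to 0.27 and Atp2a2 from -0.08 to 0.14, the last without overlap between genotypes. Myh7, the slow and cardiac beta-myosin heavy chain, stood at 10.61, 10.94, 11.51, 11.13 and 11.32 in wild-type pools 1 to 5 and at 10.31, 10.28, 10.94, 10.59 and 10.88 in MSTN-null pools 1 to 5. In both genotypes pool 3 was the highest, and wild-type pools 1 and 2 lay within the MSTN-null range. The difference was 0.50, a 1.42-fold higher level, with a 95% interval from 0.11 to 0.90 and q = 1. It lay between 0.40 and 0.62 when single pools were left out. With the level of the shared sarcomere genes in each pool as a covariate it was 0.63 with q = 0.0863, which also did not pass the threshold.

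The slow light chain Myl3 stood at 10.16, 10.30, 11.02, 10.42 and 10.51 in wild-type and at 10.27, 10.19, 10.31, 9.99 and 10.27 in MSTN-null pools, a difference of 0.27 (95% interval -0.03 to 0.58). Wild-type pool 3 was far above the rest, and wild-type pools 1 and 2 lay within the MSTN-null range. Myl2, the regulatory light chain of slow and cardiac muscle, differed by 0.23, and the slow troponins Tnnt1, Tnnc1 and Tnni1 by 0.07, 0.04 and -0.06. The level of the slow list minus that of the fast list, a quantity chosen after its values were seen and therefore given with no test, was 0.07, 0.13, -0.04, 0.24 and 0.17 in wild-type and 0.02, -0.03, -0.24, -0.13 and -0.20 in MSTN-null pools. The means were 0.12 and -0.12, and wild-type pool 3 was the only wild-type pool within the MSTN-null range. Measured against the shared sarcomere genes instead, each list overlapped between genotypes. The slow list minus these genes lay between -0.06 and 0.22 in wild-type and between -0.20 and 0.09 in MSTN-null pools. For the fast list the ranges were -0.16 to 0.15 and -0.01 to 0.12.

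**Figure D2:**
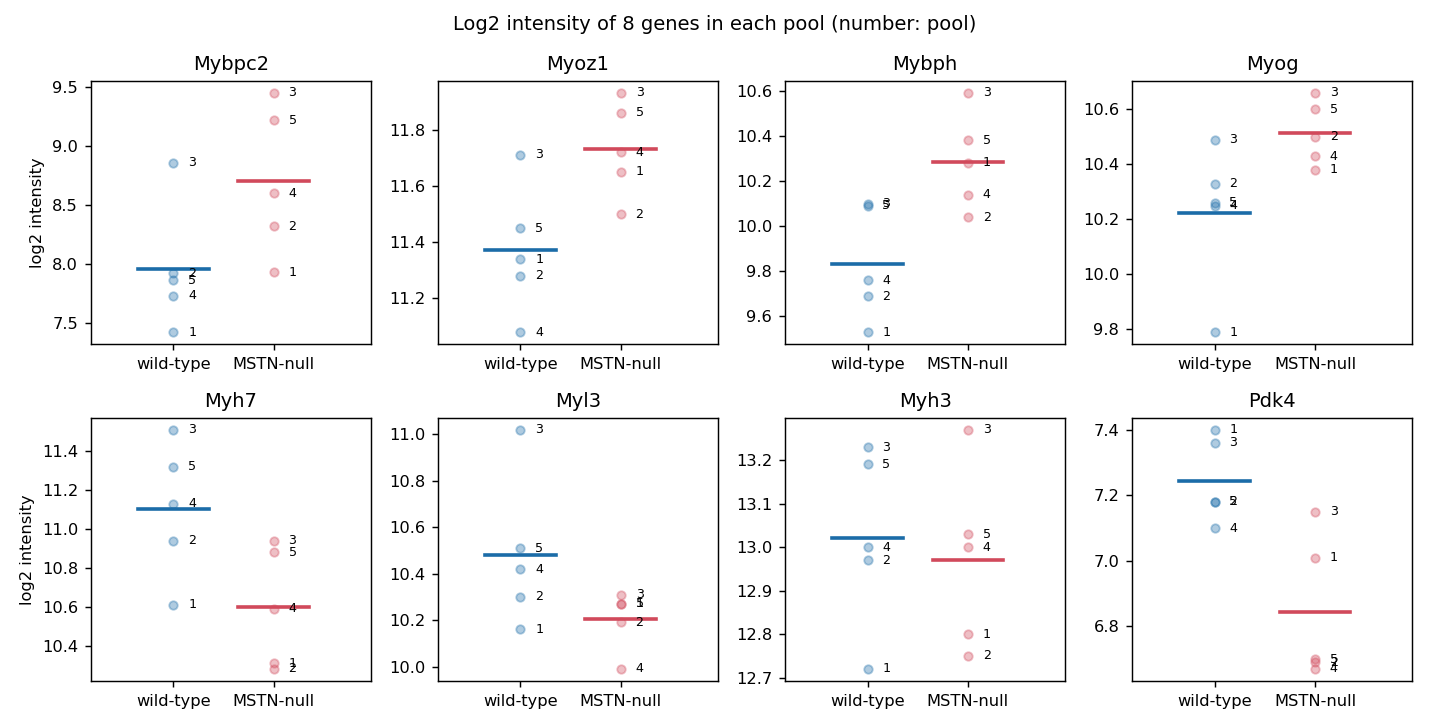
Log2 intensity (vertical axis) of 8 genes in each of the 5 wild-type and 5 MSTN-null hindquarter pools, 1 point per pool with the genotype mean as a bar. Mybpc2, Myoz1, Mybph and Myog have the higher mean in MSTN-null pools, Myh7, Myl3 and Pdk4 in wild-type pools, and the points of the genotypes overlap in every panel.

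Many slow-fibre genes had a genotype difference in hindquarters that differed from that in pectoralis muscle at d35. Across all 30 pools, 174 probe sets (0.386%) had a difference that was higher at 17.5 d.p.c. than at d35 and 148 (0.329%) one that was lower, at q below 0.05. The total of 322 was 56 when only these ages were fitted, and it ranged from 172 without d35 wild-type pool 3 to 622 without wild-type pool 5 at 17.5 d.p.c. At the brightest probe set of each gene, in the model of all pools, the calls were 97 genes (0.533%) and 88 genes (0.484%). Of 16 slow-fibre genes 9 were called, all lower at 17.5 d.p.c.: Myh7, Myl2, Myl3, Tnnt1, Tnni1, Tnnc1, Myoz2, Atp2a2 and Csrp3. The median difference of the list was -0.01 in hindquarters and 1.02 in pectoralis muscle, and the number called lay between 8 and 11 in every alternative run. Age and tissue differed together in this comparison and cannot be told apart, and the low d35 values of slow genes in the null were already known from these data.

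Levels of Tnnt1 show the pattern. In hindquarters it stood at 11.54, 11.84, 12.12, 12.02 and 12.04 in wild-type and at 11.72, 11.78, 12.02, 11.79 and 11.92 in MSTN-null pools, whereas at d35 the means were 10.55 and 8.09. The difference between genotypes was therefore 0.07 in the fetus and 2.46 in the young adult muscle, and the contrast of -2.39 had q = 1.20e-08. The contrast was -2.26 for Tnnc1, -2.16 for Tnni1, -2.11 for Myh7 (q = 2.16e-05) and -1.92 for Atp2a2, the slow calcium pump. Myh7 was the member of the list with the largest difference in hindquarters, but its 0.50 there stood against 2.61 in pectoralis muscle.

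**Figure D3:**
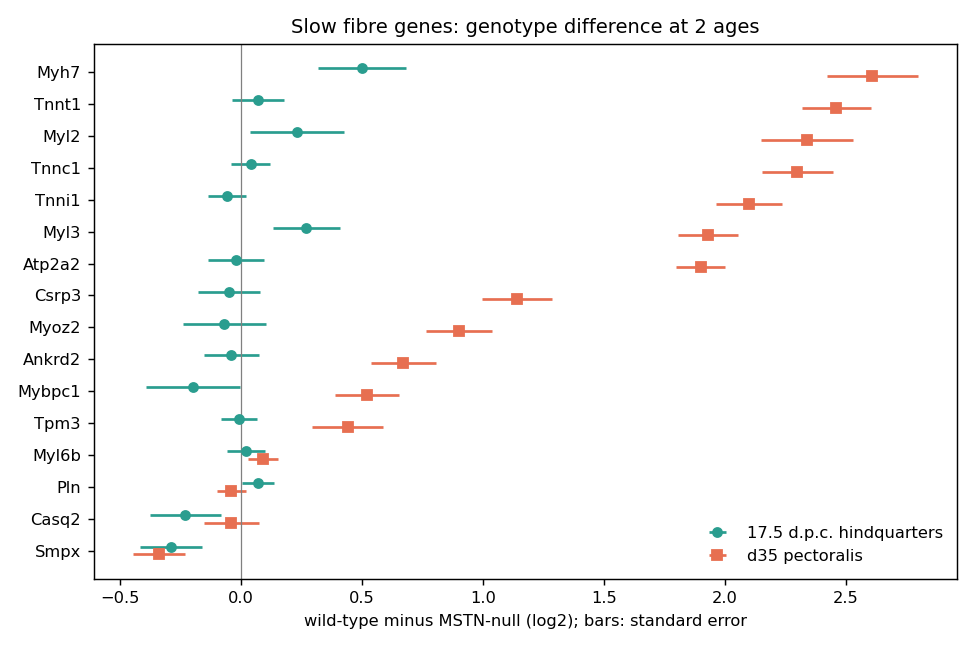
Genotype difference (wild-type minus MSTN-null, log2 scale) of the slow-fibre genes in hindquarters at 17.5 d.p.c. and in pectoralis muscle at d35, with bars of 1 SE. Tnnt1, Tnnc1 and Tnni1 lie near 0 in hindquarters and above 2 in pectoralis muscle, and Smpx is negative at both ages.

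The proximal promoters of 4 of the 9 called slow-fibre genes are shown, picked with their values known. All had a wide genotype difference at d35. In the fetus Tnnc1 and Tnnt1 differed by 0.04 and 0.07, Myl3 by 0.27 and Myh7 by 0.50. Windows of the other called genes, among them Tnni1 (-0.06 in the fetus) and Atp2a2 (-0.02), are not shown. The sequences are RefSeq's 250 bases before the annotated start on GRCm38.p6, 5′ to 3′ on the strand of the gene, with the MCAT element CATTCC or its reverse complement GGAATG in capitals. This element is bound by TEAD factors and is known from many muscle promoters.
Myh7, chr14:54994627-54994876, minus strand (the first of 2 starts listed): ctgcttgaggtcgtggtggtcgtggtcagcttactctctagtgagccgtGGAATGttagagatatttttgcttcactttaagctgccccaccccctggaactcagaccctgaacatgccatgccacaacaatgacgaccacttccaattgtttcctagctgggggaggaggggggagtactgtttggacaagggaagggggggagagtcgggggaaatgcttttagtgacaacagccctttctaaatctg
Tnnc1, chr14:31208062-31208311, plus strand: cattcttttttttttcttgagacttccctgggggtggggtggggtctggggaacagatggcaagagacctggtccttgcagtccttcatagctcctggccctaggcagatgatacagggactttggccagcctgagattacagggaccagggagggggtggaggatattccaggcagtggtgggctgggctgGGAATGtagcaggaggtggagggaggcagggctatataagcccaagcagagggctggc
Myl3, chr9:110763428-110763677, plus strand: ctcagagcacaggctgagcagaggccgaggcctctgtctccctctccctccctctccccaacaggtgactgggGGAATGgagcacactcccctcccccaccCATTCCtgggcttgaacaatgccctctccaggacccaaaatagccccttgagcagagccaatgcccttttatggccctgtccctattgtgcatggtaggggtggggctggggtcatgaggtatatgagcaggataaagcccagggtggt
Tnnt1, chr7:4515976-4516225, minus strand: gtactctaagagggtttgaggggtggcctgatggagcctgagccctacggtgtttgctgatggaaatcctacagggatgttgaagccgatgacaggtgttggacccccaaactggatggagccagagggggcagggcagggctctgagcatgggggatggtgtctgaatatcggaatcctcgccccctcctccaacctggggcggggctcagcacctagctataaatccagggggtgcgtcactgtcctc
The 6-letter element, searched on both strands, was present 1 time each in the windows of Myh7 and Tnnc1, 2 times in that of Myl3 and 0 times in that of Tnnt1. It was present in 12.6% of the 32841 promoter windows of the same length, and 4 picked windows give no measure of enrichment. The E-box CANNTG, bound by MYOD1 and MYOG, was found in all 4 windows and in 66.2% of all windows. A match describes letters in the window and not binding.

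Members of the myostatin pathway lay on both sides of 0, and only Acvr1b had an unadjusted p below 0.05. Of 21 measured genes 10 were above 0 and 11 below, and around the median of -0.01 they ranged from -0.20 to 0.17. The type II receptor Acvr2b differed by -0.04 (SE 0.0848), the signal transducers Smad2 and Smad3 by -0.09 and -0.07, and the close relative Gdf11 by 0.02. Follistatin (Fst) stood between 8.38 and 8.61 in 4 wild-type pools and at 7.75 in wild-type pool 1. In MSTN-null pools it lay between 8.42 and 8.65, a difference of -0.20, while another probe set of similar level gave 0.01. Acvr1b, the type I receptor, stood at 9.26, 9.04, 9.03, 9.01 and 9.0 in wild-type and at 8.92, 8.96, 8.93, 8.73 and 8.96 in MSTN-null pools. The genotypes did not overlap, with a difference of 0.16 (95% interval 0.01 to 0.31), while another probe set of the gene gave -0.02. At d35 the difference of Acvr1b was -0.24, and the contrast between the ages was called (0.40, q = 0.0264).

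Growth factors of the insulin-like family gave a median of 0.00 over 15 genes. Igf2, the main fetal growth factor of the family, lay between 13.93 and 14.09 in all 10 pools and differed by 0.01 (SE 0.0508). At d35 it differed by -1.31, with lower levels in wild-type muscle, and the contrast between the ages was 1.32 (q = 1.13e-09). Igfbp1, a binding protein secreted by liver, had the largest value of the list in hindquarters, 1.73, with MSTN-null pool 5 at 6.10.

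Genes of fatty acid oxidation stood higher in wild-type at 19 of 22 members, with a median of 0.15, against a median of -0.05 for glycolysis and -0.02 for the respiratory chain. Pdk4 is a kinase that inhibits pyruvate dehydrogenase. It stood at 7.40, 7.18, 7.36, 7.10 and 7.18 in wild-type and at 7.01, 6.69, 7.15, 6.67 and 6.70 in MSTN-null pools. Wild-type pool 4 and MSTN-null pool 3 were the only ones that crossed, and the difference was 0.40 (95% interval 0.17 to 0.64, q = 1). Cpt2, which completes the import of fatty acids into mitochondria, differed by 0.19. Liver also expresses this pathway, and its part in these differences was not tested. With the level of the liver genes as a covariate the median was 0.03 and 14 of 22 were higher, and Pdk4 was 0.32. That level itself differed between the genotypes (means 0.55 in wild-type and -0.55 in MSTN-null), so the covariate cannot separate liver content from genotype.

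Transcripts from liver, blood and skin varied between pools more than the muscle lists. Within genotypes the standard deviation of the list level was 1.14 for liver, 0.788 for epidermis, 0.555 for myeloid and 0.442 for erythroid genes. The largest among the muscle lists was 0.281, for the shared sarcomere genes. The 60 genes with the largest spread within genotypes, of 18193, included 16 of 23 liver and 8 of 20 epidermis genes. They held 2 of 12 erythroid, 2 of 10 myeloid and 0 muscle-list genes. As 60 is a small share of 18193, the 0 alone does not set the muscle lists apart. The median standard deviation over all probe sets within a genotype was 0.131.

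**Figure D4:**
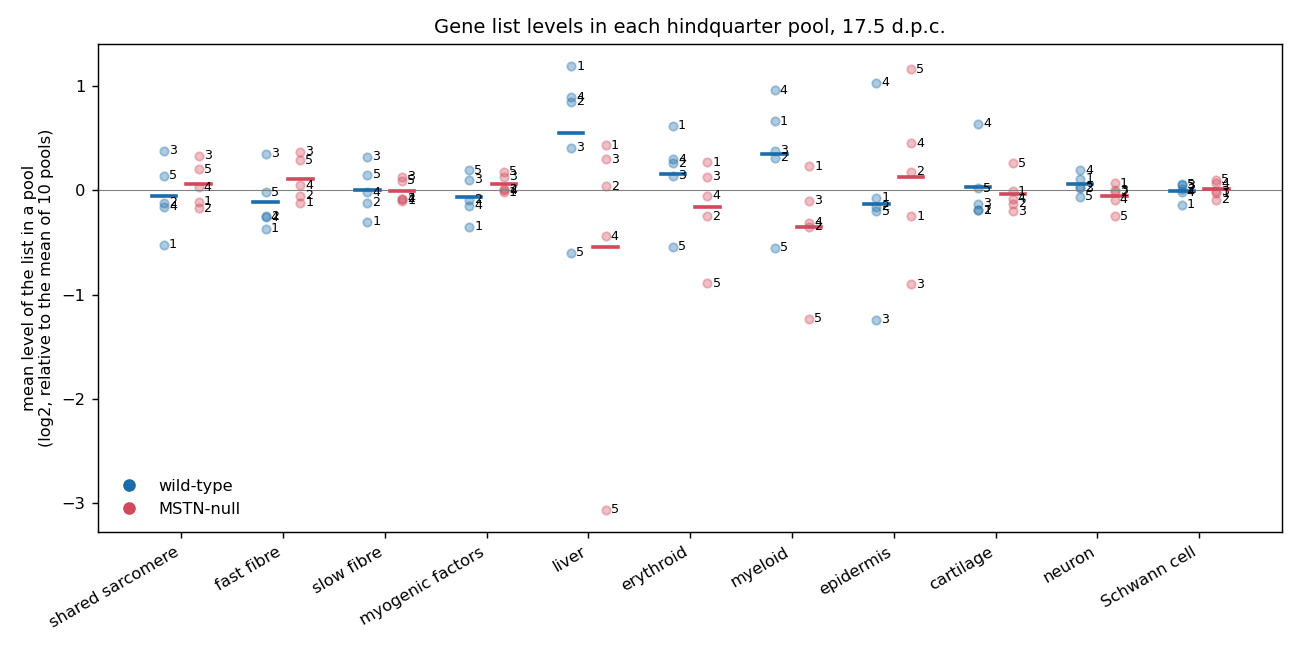
Level of gene lists in each of the 10 hindquarter pools (mean over the list's genes of the log2 value minus the mean of the 10 pools), 1 numbered point per pool, coloured by genotype, with the genotype mean as a bar. The liver list spans from -3.06 in MSTN-null pool 5 to 1.19 in wild-type pool 1, the epidermis list from -1.24 to 1.16, and the Schwann cell list stays between -0.14 and 0.10.

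Liver genes had a median difference of 1.08, with 22 of 23 higher in wild-type and 4 at an unadjusted p below 0.05. Their level was 1.19, 0.85, 0.41, 0.89 and -0.60 in wild-type pools 1 to 5 and 0.43, 0.04, 0.30, -0.44 and -3.06 in MSTN-null pools 1 to 5. MSTN-null pool 5 was far below all others, wild-type pool 5 was lowest of its genotype, and the genotypes overlapped narrowly over the other 8 pools. Fibrinogen gamma (Fgg) stood at 12.80, 12.66, 12.04, 12.54 and 11.46 in wild-type and at 11.97, 11.56, 11.89, 10.61 and 6.30 in MSTN-null pools. Its difference of 1.83 had a 95% interval from -0.22 to 3.89, and it was 0.79 without MSTN-null pool 5. Albumin (Alb) stood at 14.31, 14.19, 14.00, 14.26 and 13.41 in wild-type and at 14.09, 13.81, 13.94, 13.56 and 9.79 in MSTN-null pools, and its difference of 1.0 became 0.18 without MSTN-null pool 5. With wild-type pool 1 and MSTN-null pool 5 both left out, the median of the liver list was 0.32, and 22 of 23 genes were still higher in wild-type.

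Erythroid and myeloid transcripts were also lowest in pool 5 of each genotype. The erythroid list, which covers red cell membrane proteins, haem synthesis and globins, had a median of 0.24 with 8 of 12 higher in wild-type. Its level ran from -0.54 in pool 5 to 0.62 in pool 1 of the wild-type and from -0.89 in pool 5 to 0.27 in pool 1 of the MSTN-null. Rhag, a protein of the red cell membrane, differed by 0.91 with MSTN-null pool 5 at 5.05, while the haem synthesis enzyme Alas2 differed by 0.22. The 4 globin genes of the list differed by -0.12 to -0.01, but their probe sets read low for a tissue that holds blood. That of Hba-a1 lay between 6.11 and 6.74, below the chip A median in every pool, so these values are no usable measure of globin and the 8 genes above 0 are all other genes. With the liver level as a covariate the median of the list was -0.07. All 10 granule and neutrophil genes of the myeloid list were higher in wild-type (median 0.74), 4 of them at an unadjusted p below 0.05. Lactotransferrin (Ltf), a protein of neutrophil granules, stood at 9.35, 9.18, 9.24, 9.91 and 8.26 in wild-type and at 8.64, 8.25, 8.54, 8.08 and 7.69 in MSTN-null pools. Only wild-type pool 5 reached into the MSTN-null range, and the difference was 0.95 (95% interval 0.35 to 1.54, q = 1). With the liver level as a covariate it was 0.58, and the median of the myeloid list was 0.20. Macrophage genes had a median of 0.04, and among them Csf1r, the receptor for macrophage growth factor, did not overlap between genotypes (0.24).

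Skin transcripts separated pools within each genotype. The epidermis list, from basal keratins to proteins of the cornified layer, had a level of -0.07, -0.16, -1.24, 1.03 and -0.20 in wild-type and -0.25, 0.18, -0.90, 0.45 and 1.16 in MSTN-null pools. Pool 3 was the lowest of each genotype, and wild-type pool 4 and MSTN-null pool 5 were the highest. Keratin 1 (Krt1), of the layers above the basal one, stood at 11.29, 10.84, 8.13, 13.30 and 11.19 in wild-type and at 10.40, 11.38, 9.18, 12.22 and 13.09 in MSTN-null pools. The span of more than 5 log2 units gave an SE of 0.914 for a difference of -0.30. Over the list the median was -0.27, and it turned to 0.06 at the highest when 1 pool was left out and to 0.09 with the liver level as a covariate. Krt17, a keratin of hair follicles and periderm, was the only gene of the list at an unadjusted p below 0.05 (-0.43, 95% interval -0.70 to -0.15).

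Nerve transcripts varied less between pools than those of liver and skin. The Schwann cell list had a median of -0.01 over 11 genes, with none at an unadjusted p below 0.05 and a level between -0.14 and 0.10 in all pools. Sox10, the factor that specifies Schwann cells, lay between 8.99 and 9.42 and differed by 0.01, and Ngfr differed by -0.11. Neuronal genes had a median of 0.09, with 14 of 17 higher in wild-type. The largest values were those of the intermediate filament alpha-internexin (Ina, 0.30, 95% interval 0.04 to 0.55) and of the synaptic protein Snap25 (0.28), while neuronal tubulin Tubb3 differed by -0.01. The level of the neuron list was lowest in MSTN-null pool 5 (-0.25), the pool with the lowest liver level, and highest in wild-type pool 4 (0.19).

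Muscle lists were set beside these levels by fitting them as covariates or by leaving out the pools at the ends of the range. With the liver level as a covariate the median was -0.01 for the shared sarcomere genes, -0.12 for the fast, 0.06 for the slow, -0.11 for the developmental and -0.03 for the myogenic list. With wild-type pool 1 and MSTN-null pool 5 both left out, the fast list stood at -0.12 with 13 of 15 genes lower in wild-type, and the slow list at 0.08 with 14 of 16 higher. Myh7 was then 0.69 (q = 1), Mybph -0.35, Myoz1 -0.32 and Mybpc2 -0.48. The difference of Actn3 was -0.12 in that setting, and that of Myog -0.16.

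**Figure D5:**
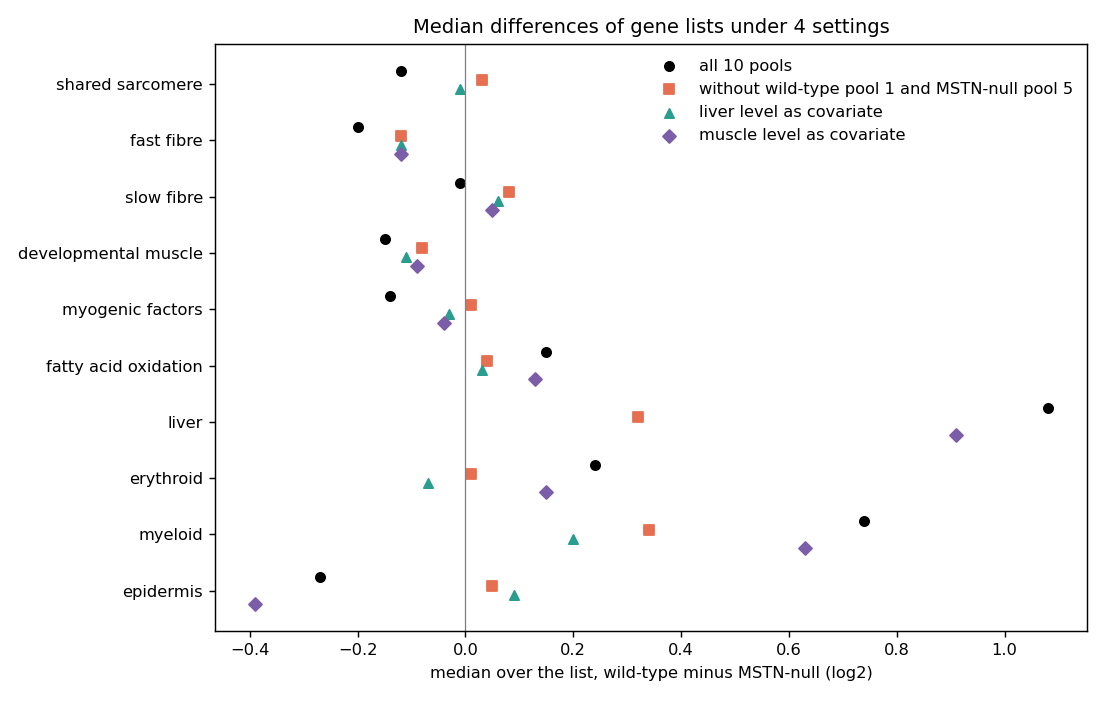
Median genotype difference (log2 scale, wild-type minus MSTN-null) of selected gene lists in all 10 pools, without wild-type pool 1 and MSTN-null pool 5, and with the liver or the muscle level as a covariate, 1 point per setting. The fast list stays below 0 in every setting drawn, the liver list above 0, and the epidermis list lies on both sides of 0 (-0.27 in all pools and 0.09 with the liver covariate).

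The probe sets with the smallest p-values mixed these tissues. Among those higher in wild-type were Cyp2a12, a liver cytochrome P450 (0.35, 95% interval 0.20 to 0.50), Slc10a1, the bile acid transporter of hepatocytes (0.87, 0.41 to 1.32), and Pga5, a pepsinogen of the stomach (1.24, 0.63 to 1.84). Slc10a1 stood at 8.41, 7.61, 7.60, 8.03 and 7.30 in wild-type and at 7.02, 7.19, 7.20, 6.48 and 6.71 in MSTN-null pools, without overlap, and its difference was 0.66 with the liver level as a covariate. Pga5 stood at 9.95, 9.87, 9.09, 8.68 and 9.99 in wild-type and at 8.71, 7.70, 8.61, 8.21 and 8.17 in MSTN-null pools, and wild-type pool 4 fell just within the MSTN-null range. Lpin1, a phosphatidate phosphatase of lipid synthesis that is active in muscle, fat and liver, had 2 probe sets without overlap. At the first it stood at 8.11, 8.25, 8.08, 7.78 and 7.80 in wild-type and at 7.45, 7.59, 7.75, 7.01 and 7.14 in MSTN-null pools, a difference of 0.61, and at the other the difference was 0.48. With the liver level as a covariate the first was 0.47. Serping1, the inhibitor of the first complement component, differed by 0.37, and the immunoglobulin mu chain Ighm by 0.22. Foxo3 differed by 0.31 at a probe set without overlap between the genotypes. A brighter probe set of Foxo3, with overlap, gave 0.24, and a dimmer probe set gave 0.03.

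Among those lower in wild-type were Tmem132c (-0.35, 95% interval -0.49 to -0.20), the potassium channel subunit Kcne1l (-0.55, -0.81 to -0.28) and the exoribonuclease Xrn1 (-0.42). Kcne1l stood at 8.21, 8.22, 8.67, 8.27 and 8.39 in wild-type and at 8.78, 8.70, 9.22, 8.74 and 9.05 in MSTN-null pools, so that the genotypes were separated by a narrow gap. Its difference was -0.48 with the liver level as a covariate and -0.47 with wild-type pool 1 and MSTN-null pool 5 left out. Akt2, the kinase of insulin signalling, had 1 probe set without overlap (-0.26), whereas its other 2 probe sets gave -0.05 and -0.04. Fam126b stood at 6.07, 6.75, 7.02, 6.92 and 6.47 in wild-type and at 7.20, 7.14, 7.63, 7.21 and 7.15 in MSTN-null pools. This was 1 of the 4 probe sets of that gene, its difference of -0.62 was close to the -0.69 measured in embryos of 13.5 d.p.c., and at d35 it was 0.09.

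Against the embryos of 13.5 d.p.c., 0% of probe sets had a genotype difference that differed at q below 0.05, and 2821 had an unadjusted p below 0.05. Without wild-type pool 5 at 17.5 d.p.c. 31 probe sets were called. The smallest q was 0.137, at Pga5, whose difference was 1.24 in hindquarters and -0.11 in whole embryos. Slc10a1 stood at 0.87 against -0.08. Of the muscle genes described above, Myh7 differed by 0.50 in hindquarters and by -0.06 in embryos, a contrast of 0.56 that was not called (q = 0.773).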

How the data were processed

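The members and gene lists were chosen with earlier results of these data known. RNA of 3 animals per pool was hybridised to both chips of the MOE430 set. The deposited values are log2 intensities that the authors normalised by RMA with the affy package (versions not given in the sources used here), in 1 table per chip. Chips A and B of a pool were joined by genotype, age and replicate number, and all 10 chip B arrays were closest to the chip A array of their own pool. Control probe sets were left out, and the 100 probe sets carried by both chips were taken from chip A. Probe sets were named through the platform annotation, with symbols updated by gene identifier (34741 matched). No filter, offset or further normalisation was applied.

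Genotypes were compared by limma 3.58.1 (R 4.3.3) on the 10 hindquarter pools, with no covariate, as in the study's methods, and Storey q-values were called below 0.05. A gene was taken at its brightest probe set. Age contrasts came from 6 groups of 5 pools sharing 1 estimate of spread. Pools were biological replicates of pooled animals, and array number limits the precision. Named were the 5 probe sets with the smallest p in each direction, the 5 with the largest difference without overlap, the 3 largest of each list, defining genes of each tissue, and the 5 top age contrasts in each direction. Other genes printed are list members chosen after their values were seen. Of 503 listed genes 470 were measured. The code was tested on simulated data. Alternatives are given in the closing section.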

Additional observations from a re-analysis of the deposited data

Results flagged for a closer look

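Single pools stood apart in 16 of 170 groups of 5 pools tested by Dixon's criterion (critical value 0.71), 6 of 70 list levels and 10 of 100 gene groups, where chance gives about 1 in 20. MSTN-null pool 5 was low for the liver list (-3.06), Fgg (6.30), Alb (9.79) and Igfbp1 (6.10). Wild-type pool 4 was high for the cartilage list (0.64), for Col2a1, the collagen of cartilage (11.97), and for the pancreas list (0.72). Wild-type pool 1 was low for Fst (7.75) and high for Acvr1b (9.26), for which MSTN-null pool 4 was low (8.73). MSTN-null pool 1 was low for the adipocyte list (-0.19) and Adipoq (9.08). The kidney and bladder list was high in wild-type pool 2 (0.19) and MSTN-null pool 2 (0.22). MSTN-null pool 3 was high for Fam126b (7.63) and low for Xist (7.75), the transcript of the inactive X chromosome, which lay between 10.37 and 12.19 in the other pools. That pool was also highest for the Y-linked Eif2s3y (7.06), and the part of the sex of the pooled animals in the genotype differences was not tested.

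Genotype differences that differed from those in pectoralis muscle at d35 (limma contrast, 17.5 d.p.c. minus d35) were, above 0, Igf2 (1.32, q = 1.13e-09), Cd28, a receptor of T cells (1.06, q = 8.40e-07), Gabrr2 (1.13, q = 2.49e-06), Cpne2 (0.65, q = 4.97e-06) and the sorting receptor Sort1 (0.46, q = 7.16e-05). Below 0 they were Atp2a2 at 2 probe sets (-1.61, q = 7.13e-10, and -1.92, q = 1.13e-09), Tnnt1 (-2.39, q = 1.20e-08), Tnni1 (-2.16, q = 3.78e-08) and Tnnc1 (-2.26, q = 4.33e-08). Age and tissue cannot be told apart in these contrasts.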

How the results depend on the processing

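The causes of the shifts below were not tested. No probe set was called in any of 22 other settings, while 1 fit of all 30 pools called 14 (among them Pga5, Slc10a1, Tmem132c, Xrn1, Kcne1l, Ltf, Cyp2a12 and Lpin1). Probe sets at p below 0.05 numbered 675 higher and 418 lower in wild-type, 1284 and 1048 with array weights, 1923 and 1309 with the single fit, 1046 higher without the chip B array of wild-type pool 1, and 597 and 686 after further quantile normalization. Chip B alone gave 173 higher and 248 lower, and chip A alone 173 lower. Leaving out 1 pool gave 402 (without MSTN-null pool 5) to 1167 (without wild-type pool 5) higher and 312 to 619 lower. Counts without overlap were 94 and 28 on chip A, 55 higher on chip B, 269 and 188 without the chip B array of wild-type pool 1, 156 lower after quantile normalization, 682 and 425 with wild-type pool 1 and MSTN-null pool 5 left out, and 236 to 449 higher and 158 to 265 lower with 1 pool left out, since fewer pools separate more easily. Leaving out the chip B array of wild-type pool 1, or wild-type pool 1 and MSTN-null pool 5 together, was chosen after seeing the data.

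The labels do not say that replicate numbers pair the pools, and the values did not settle it: residual correlations of equal numbers were 0.30, -0.20, 0.39, -0.07 and 0.48, and 3 of 5 wild-type pools matched their own number best, so the numbers were not treated as pairs. With the replicate block 1140 probe sets were higher in wild-type at p below 0.05, still with none called, 562 were called against d35 and 69 against 13.5 d.p.c. Against d35 the count was 322, 236 with Benjamini-Hochberg adjustment, 56 with only these ages fitted, and 172 (without d35 wild-type pool 3) to 622 (without wild-type pool 5 at 17.5 d.p.c.). Against 13.5 d.p.c. it was 1 after quantile normalization and 0 to 31 with 1 pool left out, the most without wild-type pool 5 at 17.5 d.p.c.

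Medians that changed sign were those of the shared sarcomere (-0.22 to 0.01 with 1 pool left out, 0.03 without both named pools), myogenic (-0.20 to 0.00, and 0.01) and epidermis lists (-0.48 to 0.06, and 0.05, with 0.23 under array weights and 0.09 with the liver covariate). The liver covariate also turned the erythroid list (-0.07), the gut list (-0.01), Rhag (-0.33), Slc4a1 (-0.23), Ermap (-0.03), S100a8 (-0.05), Snap25 (-0.00) and Fabp2 (-0.05). Without both named pools Chrna1 was 0.02, Rhag -0.01 and Fabp2 -0.01. Without wild-type pool 4 the pancreas list was -0.01 (range -0.01 to 0.23), Matn1 -0.02 (to 0.32) and Ctrb1 -0.02 (to 0.41). The fast list on chip B alone, with its few genes there, was -0.46. List medians were not computed for the liver list under the liver covariate or for the shared sarcomere list under the muscle covariate, which these genes made. The fits and counts under these covariates did include those genes. Overlap counts were not recomputed where a setting left the values as they were.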

Other observations

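Transcripts typical of lung, gut and pancreas were high in single pools, and their source was not tested. Sftpc, the surfactant protein of lung, stood at 10.65 in wild-type pool 2 and 10.63 in wild-type pool 4 and between 6.50 and 7.83 in the other 8 pools. All 9 gut genes were higher in wild-type (median 0.16), with the intestinal cadherin Cdh17 at 0.51 and none at an unadjusted p below 0.05. The level of the gut list was highest in wild-type pool 1 (0.51) and MSTN-null pool 2 (0.40). The 7 pancreas genes had the same median, and their level was 0.72 in wild-type pool 4 and no higher than 0.12 elsewhere.

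Adipocyte genes had a median of -0.07, with 8 of 9 lower in wild-type. Adipoq, the adipocyte hormone adiponectin, stood at 8.33, 7.73, 11.03, 8.32 and 9.78 in wild-type and at 9.08, 10.22, 10.30, 10.09 and 10.09 in MSTN-null pools. Wild-type pool 3 was the highest of all and 3 wild-type pools were the lowest, with a difference of -0.92 (SE 0.549). Genes of DNA replication and mitosis had a median of 0.03, with 16 of 21 higher in wild-type and none at an unadjusted p below 0.05. Fibronectin (Fn1), a matrix protein that liver also secretes, did not overlap between genotypes (0.18, 95% interval 0.07 to 0.29), while the 15 connective tissue genes had a median of -0.03.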
